A study of Mus musculus with 2 samples.

Results

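The cells described here are fibroblast-like cells of the mouse knee that carried Col1a1 together with at least 3 of the genes Postn, Tnn, Mmp13, Cpxm1 and Megf6. They were found in 2 single-cell libraries of wild-type (WT) mice, 1 prepared after DMM surgery and 1 after sham surgery. DMM, destabilization of the medial meniscus, is an operation that loosens the joint and leads to osteoarthritis in mice, and a sham operation leaves the meniscus in place. Each library pooled 3 mice. The tissue was labelled knee joint cartilage and the cells superficial cells, and live cells (DAPI-, CalceinAM+) lacking the blood and vessel markers CD45, Ter119 and CD31 had been sorted after enzymatic digestion. The labels used give neither the age of the mice nor the time since surgery. A barcode was kept with 500 or more genes and at most 10% mitochondrial UMIs. A member had Col1a1 at or above 5000 CPM (UMIs of a gene scaled to a common total per cell or per set of cells), Prg4 under 10000 CPM, a UMI of at least 3 of the 5 genes, and a UMI of fewer than 2 of the osteoblast genes Sp7, Bglap, Bglap2, Dmp1 and Phex. Members were thus chosen by measured levels of these genes, and the levels of those genes in them describe the choice. By this rule 292 of 9889 kept cells of the DMM library and 84 of 9992 of the sham library were members, 376 of 19881 in all. They are called Postn, Tnn and Mmp13 cells below. Members had a median of 8141 UMIs in the DMM library and 8749 in the sham library.

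Periostin (Postn) and tenascin N (Tnn) are secreted proteins that sit between collagen fibres and cell surface receptors, and both are made where bone and fibrous tissue meet, as in periosteum and ligament attachments. Collagenase 3 (Mmp13) cuts collagens of cartilage and bone and is much studied in osteoarthritis. Cpxm1 encodes a secreted carboxypeptidase-like protein and Megf6 a protein with EGF-like repeats. Sfrp2 encodes a secreted binder of Wnt ligands. Col1a1 encodes a chain of type I collagen, the main collagen of bone, tendon and ligament, while Prg4 encodes lubricin, the lubricant made by cells at the cartilage surface and the synovial lining.

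Because Mmp13, Postn and Tnn give these cells their name, and Ibsp is the bone matrix gene that went with Mmp13 most closely in both libraries among the genes compared by Mmp13 detection, the 250 bases before the start of each gene are shown (RefSeq, GRCm38.p6). Capitals mark 3 short motifs, searched on both strands: TGANTCA of the AP-1 factors Fos and Jun, TGTGGT of Runx factors, and TATAAA of the TATA box. The windows are chr9:7272264-7272513 (plus strand) for Mmp13, chr3:54360857-54361106 (plus strand) for Postn, chr1:160153576-160153825 (minus strand) for Tnn and chr5:104299037-104299286 (plus strand) for Ibsp.
Mmp13: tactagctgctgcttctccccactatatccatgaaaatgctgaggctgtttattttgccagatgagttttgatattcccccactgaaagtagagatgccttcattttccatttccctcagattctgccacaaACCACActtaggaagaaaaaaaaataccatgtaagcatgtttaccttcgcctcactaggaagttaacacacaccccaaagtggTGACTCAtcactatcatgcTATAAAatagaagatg
Postn: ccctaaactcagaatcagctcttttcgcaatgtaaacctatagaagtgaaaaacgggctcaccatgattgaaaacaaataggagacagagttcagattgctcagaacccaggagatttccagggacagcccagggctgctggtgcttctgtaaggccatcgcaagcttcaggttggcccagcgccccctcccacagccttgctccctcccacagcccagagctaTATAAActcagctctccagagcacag
Tnn: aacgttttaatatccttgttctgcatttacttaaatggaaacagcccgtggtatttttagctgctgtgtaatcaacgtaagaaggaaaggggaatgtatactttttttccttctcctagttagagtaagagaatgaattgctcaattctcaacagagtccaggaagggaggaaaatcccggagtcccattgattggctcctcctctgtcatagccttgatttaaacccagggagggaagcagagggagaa
Ibsp: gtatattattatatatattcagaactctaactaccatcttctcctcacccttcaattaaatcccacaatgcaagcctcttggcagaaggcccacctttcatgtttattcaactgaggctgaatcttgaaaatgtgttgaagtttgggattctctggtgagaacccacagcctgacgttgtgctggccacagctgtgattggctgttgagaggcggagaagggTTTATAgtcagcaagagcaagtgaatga
The Mmp13 window held all 3 motifs: the AP-1 letters as TGACTCA, the Runx letters on the opposite strand as ACCACA, and TATAAA. The Postn window held TATAAA, the Ibsp window held it on the opposite strand as TTTATA, and the Tnn window held none of the 3 in these letters. Among 32851 mouse promoter windows of this length, 6.75% held the AP-1 letters, 14.0% the Runx letters and 12.4% TATAAA. A match of letters describes the sequence and shows no binding.

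Postn, Tnn and Mmp13 cells made up 2.95% of kept cells in the DMM library (95% interval 2.63% to 3.31%) and 0.841% in the sham library (0.671% to 1.04%). The ratio of the shares was 3.51 (2.75 to 4.53). All intervals in this text are exact and cover counting error only. They leave out variation between cells, mice and preparations, and with 1 library per surgery no difference between the libraries can be tested or told apart from a difference between the preparations. The other Col1a1-high cells also had higher shares in the DMM library. Osteoblast lineage cells, which passed the same Col1a1 and Prg4 limits with 2 or more of the 5 osteoblast genes, had 647 cells in the DMM library and 255 in the sham library, a ratio of shares of 2.56 (2.21 to 2.98). The other Col1a1 cells, with fewer than 3 of the 5 naming genes and fewer than 2 osteoblast genes, had 903 and 408 cells in the DMM and sham libraries, a ratio of 2.24 (1.99 to 2.52). Despite the sort, kept cells included erythroid cells, with 3 or more of 6 erythroid markers. They numbered 1020 in the DMM library and 1825 in the sham library, 10.3% and 18.3% of kept cells. Their ratio of shares was 0.565 (0.523 to 0.610), and they are part of the total behind every share of kept cells. Among Col1a1-high cells alone, members were 15.9% in the DMM library and 11.2% in the sham library, a ratio of 1.41 (1.10 to 1.82). The plot of shares shows the 3 sets side by side.

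**Figure D1:**
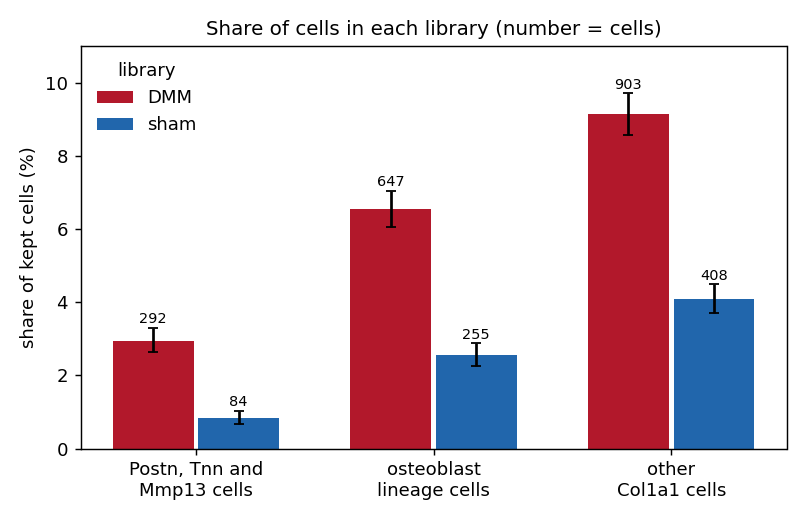
Share of kept cells (%, vertical axis) in the DMM (red) and sham (blue) libraries for the 3 sets of Col1a1-high cells. Error bars are exact 95% intervals of counting error and numbers are cells; all 3 sets stand higher for DMM, members at 2.95% against 0.841%.

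Just inside and just outside the limit of 3 genes the numbers ran without a gap. Of Col1a1-high cells with fewer than 2 osteoblast genes, 155 cells of the DMM library and 51 of the sham library had exactly 3 of the 5 naming genes, and 208 and 86 had exactly 2. All 5 were found in 39 DMM cells and 4 sham cells. Likewise 96 DMM and 32 sham members had 1 osteoblast gene, and 125 DMM and 41 sham cells with 2 such genes fell just outside. The commonest combination was Tnn, Cpxm1 and Megf6 in the DMM library, with 55 cells, and Tnn, Mmp13, Cpxm1 and Megf6 in the sham library, with 15 cells. No barcode of a member was shared between the libraries, although 17 kept cells had a barcode found in both. Scrublet called 5 DMM members and 0 sham members doublets, and they were kept.

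The values of the 5 naming genes follow from the rule and describe it. Tnn was detected in 88.7% of DMM members and 71.4% of sham members, Postn in 53.1% and 51.2%, Mmp13 in 56.8% and 66.7%, Cpxm1 in 82.5% and 94.05%, and Megf6 in 79.1% and 60.7%. In erythroid cells, which should lack these genes and which had median depths of 10376 and 8730 UMIs, each of the 5 was found in 1.18% to 3.82% of DMM cells and 0.548% to 3.12% of sham cells. Postn was spread very unevenly: 137 of 292 DMM members and 41 of 84 sham members had no UMI of it, while the highest member reached 16484 CPM in the DMM library and 7761 CPM in the sham library. Sfrp2, which took no part in the rule, was found in 35.96% of DMM members and 48.8% of sham members, at 560 CPM and 801 CPM over all members. It was at 204 CPM and 106 CPM in osteoblast lineage cells, and at 216 CPM and 323 CPM in other Col1a1 cells. Postn, Tnn and Mmp13 were not particular to these cells: osteoblast lineage cells had Mmp13 at 866 CPM in the DMM library and 1019 CPM in the sham library, Postn at 533 CPM and 671 CPM, and Tnn at 508 CPM and 348 CPM. Cpxm1 and Megf6 separated the sets more, at 89.9 CPM and 58.0 CPM for Cpxm1 and 36.6 CPM and 19.9 CPM for Megf6 in osteoblast lineage cells, against 296 CPM and 413 CPM for Cpxm1 and 191 CPM and 110 CPM for Megf6 in members.

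The libraries were labelled superficial cells. Prg4, which marks such cells, was limited by the rule, so its low level in members is in part set by the choice. It stood at 614 CPM in DMM members and 437 CPM in sham members, below its level in erythroid cells of the same libraries, 2353 CPM and 2053 CPM, or 848 CPM and 871 CPM once called doublets were left out. The lining genes Clic5 and Htra4 had 5 and 33 UMIs over all DMM members, and 3 and 5 over sham members. The cartilage collagen Col2a1 was likewise at 79.1 CPM and 94.8 CPM in members, under its 1106 CPM and 1973 CPM in erythroid cells. Marker lists of other fibroblasts and of marrow stroma were well above 0. The 3 matrix fibroblast genes summed to 988 CPM in DMM members and 864 CPM in sham members. In other Col1a1 cells they summed to 916 CPM and 684 CPM. The 4 marrow stroma genes summed to 350 CPM and 549 CPM in members, against 385 CPM and 829 CPM. The 4 adventitial fibroblast genes summed to 323 CPM and 371 CPM, against 783 CPM and 793 CPM. Markers of the remaining cell types were mostly low, but not all of them were near 0. The 5 osteoclast genes summed to 33.9 CPM in DMM members and 36.2 CPM in sham members, nearly all of it Acp5, and 21.2% and 25% of members had a UMI of the list. The 4 macrophage genes summed to 14.8 CPM and 13.7 CPM, mostly Lyz2. The 4 mural genes, which mark vessel wall cells, summed to 119 CPM and 54.9 CPM, mostly Acta2, and 32.9% and 21.4% of members had a UMI of that list. Cdh5 and Kdr of endothelium, Calcr, Ocstamp and Dcstamp of osteoclasts, Adgre1 of macrophages, Ngp, Ltf and Elane of neutrophils, and Sox10 of glia had 0 UMIs in members of both libraries. The 6 erythroid markers summed to 51.1 CPM in DMM members and 67.4 CPM in sham members. A haemoglobin UMI was found in 86.0% of DMM members and 96.4% of sham members, and the 4 haemoglobin genes summed to 3403 CPM and 2984 CPM.

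Members had high levels of fibrous collagen genes. Col1a2 was at 11989 CPM in DMM members and 11985 CPM in sham members, and Col3a1, a collagen of soft connective tissue, at 10967 CPM and 9361 CPM. The small proteoglycans decorin (Dcn) and lumican (Lum), which bind collagen fibrils, reached 8202 CPM and 6347 CPM in DMM members, and 6030 CPM and 5158 CPM in sham members. Asporin (Aspn) was at 1954 CPM and 1382 CPM. The tendon and cartilage matrix gene Comp was at 2702 CPM and 2188 CPM. The tendon regulator Scx was at 46.0 CPM and 42.4 CPM. Tenomodulin (Tnmd), a surface protein of tendon cells, was at 73.7 CPM and 102 CPM. Both were low in members of both libraries, but the tendon and ligament list as a whole was not. Its 11 genes summed to 4514 CPM in DMM members and 4973 CPM in sham members. The sums were 3522 CPM and 3232 CPM in osteoblast lineage cells, and 5376 CPM and 5644 CPM in other Col1a1 cells. A UMI of 3 or more of the 11 genes was found in 88.7% and 83.3% of members. That share was not particular to this list: for the 17 chondrocyte genes it was 97.6% in both libraries. The chondrocyte list summed to 4231 CPM and 3759 CPM in members, below its 4342 CPM and 6893 CPM in erythroid cells. The tendon and ligament list summed to 531 CPM and 654 CPM in erythroid cells.

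Against osteoblast lineage cells, members had far lower levels of later bone-forming genes, and a smaller difference in Runx2. Of 5255 genes with at least 100 UMIs in each library, 3.69% were 2-fold or more higher in members in both libraries and 3.2% were 2-fold or more lower. These cells were separated with osteoblast genes, so the counts describe the rule's outcome. Of 17 measured genes of the osteoblast list, 14 were 2-fold or more lower in members and 0 higher, with median log2 ratios of -2.58 in the DMM library and -2.20 in the sham library, against 0.08 and 0.11 over all genes. Ifitm5, an osteoblast membrane protein gene, had 1.17 CPM in DMM members and 1.25 CPM in sham members, against 210 CPM and 315 CPM in osteoblast lineage cells. Smpd3, a sphingomyelinase needed for bone mineralization, had 10.9 CPM and 9.98 CPM in members, against 289 CPM and 521 CPM. Alpl, the phosphatase of mineralizing cells, was at 195 CPM and 172 CPM in members, against 1317 CPM and 798 CPM. Runx2, the transcription factor needed for osteoblasts, was at 327 CPM in DMM members and 456 CPM in sham members, against 696 CPM and 1137 CPM, and was detected in 219 of 292 and 68 of 84 members. Bone sialoprotein (Ibsp) was at 1919 CPM and 1484 CPM in members. It was at 8143 CPM and 7419 CPM in osteoblast lineage cells and 272 CPM and 309 CPM in erythroid cells. Ibsp was uneven among members. It was detected in 59.6% of DMM members and 40.5% of sham members, with per-cell medians of 167 CPM and 0 CPM. The highest member reached 82642 CPM in the DMM library and 23295 CPM in the sham library.

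Among the genes that stood highest over osteoblast lineage cells, enkephalin precursor (Penk) was at 235 CPM in DMM members and 286 CPM in sham members, against 20.0 CPM and 26.9 CPM. Insulin-like growth factor 1 (Igf1) was at 583 CPM and 615 CPM, against 76.4 CPM and 76.5 CPM. Col14a1, a collagen on the surface of fibrils, was at 684 CPM and 846 CPM, against 89.9 CPM and 46.4 CPM. Igf1 and Col14a1 were not particular to members. Other Col1a1 cells had Igf1 at 595 CPM and 589 CPM, and Col14a1 at 756 CPM and 1007 CPM. Penk was lower there than in members, at 67.1 CPM and 139 CPM. Igfbp2, Ccn3, Matn4, Tnmd, Lsamp, Dclk1, Rnf180, H19 and Cfb completed the 12 highest. The 12 lowest were Car3, Ifitm5, Slc13a5, Bmp3, Slc36a2, Col22a1, Ptprz1, Smpd3, Cdh2, Col11a2, Col2a1 and Tnfrsf11b. Of the 12 measured inflammation and chemokine genes, 6 were 2-fold or more higher in members than in osteoblast lineage cells in both libraries, and 0 lower, with median log2 ratios of 1.15 and 1.96. Of 14 IGF and FGF genes 6 were higher and 0 lower.

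Fewer genes separated members from the other Col1a1 cells. Of 5364 genes, 0.783% were 2-fold or more higher in members in both libraries and 1.32% lower. The cadherin Cdh11, an adhesion protein of mesenchymal cells, was at 593 CPM in DMM members and 771 CPM in sham members, against 225 CPM and 253 CPM. The growth factor receptor Fgfr2 was at 442 CPM and 513 CPM, against 174 CPM and 206 CPM. Pleiotrophin (Ptn), a heparin-binding growth factor, was at 253 CPM and 278 CPM, against 67.2 CPM and 55.4 CPM. Osteoblast lineage cells stood between these sets, with Cdh11 at 444 CPM and 626 CPM and Fgfr2 at 364 CPM and 352 CPM. Ptn was at 155 CPM and 159 CPM in osteoblast lineage cells. On the lower side, Tnxb, tenascin X of loose connective tissue, was at 35.1 CPM and 57.4 CPM in members, against 204 CPM and 380 CPM. The RANKL decoy receptor Tnfrsf11b was at 9.35 CPM and 7.49 CPM, against 121 CPM and 93.99 CPM, and Clec3b was at 176 CPM and 126 CPM, against 657 CPM and 834 CPM. Of 11 pain and axon guidance genes 5 were 2-fold or more lower in members in both libraries and 1 higher, with median log2 ratios of -1.40 in the DMM library and -1.32 in the sham library, against 0.00 and 0.03 over all genes. Members thus stood lower than both comparison sets for Tnfrsf11b, which was at 159 CPM and 185 CPM in osteoblast lineage cells.

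**Figure D2:**
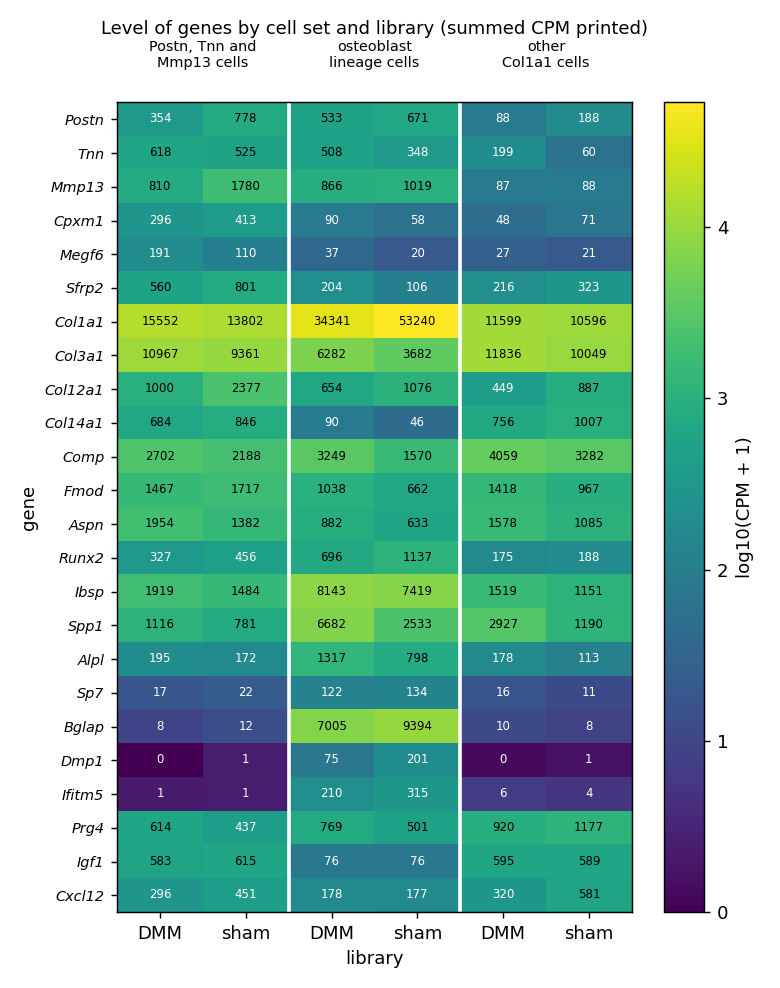
Summed CPM (printed; colour is log10 of CPM + 1) of 24 genes, in rows, in members, osteoblast lineage cells and other Col1a1 cells of the DMM and sham libraries, in columns. Bglap, Dmp1 and Ifitm5 separate osteoblast lineage cells, Cpxm1 and Megf6 stand highest in members, and Postn, Tnn and Mmp13 are high in both.

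Members were not uniform. Clustering of the 376 cells, with every gene that differed 1.5-fold or more between the libraries left out, gave 7 subclusters of 18 to 88 cells. Their leading genes describe the clustering and carry no test. Subcluster 1 (88 cells) was led by Chil1, Slitrk6 and Matn4 and had Penk at 516 CPM. Subcluster 2 (70 cells) was led by Fat3 and Bglap2 and included Alpl among its 8 leading genes, at 602 CPM. Its Ibsp was at 4185 CPM, Mmp13 at 2097 CPM and Postn at 930 CPM. Subcluster 3 (60 cells) was led by Ctla2a, Clec3b and Lrrc15, with Ibsp at 284 CPM and Col3a1 at 15593 CPM. Subcluster 4 (59 cells) was led by Igfbp2, Snhg11, Nppc and Ccn3, with Mmp13 at 1968 CPM, Col12a1 at 3200.4 CPM and Sfrp2 at 1074 CPM. Subcluster 5 (53 cells) had the chemokine genes Ccl7 and Ccl2, the cytokine gene Lif and complement C3 among its leading genes, with Cxcl12 at 1104 CPM and Igf1 at 1271 CPM. Subclusters 6 (28 cells) and 7 (18 cells) were small, led by Gpr137b, Dgki and Rerg, and by Mctp1, Twnk and Armc6. Haemoglobin Hbb-bs summed to 5236 CPM in subcluster 2 and 4466 CPM in subcluster 4, against 96.8 CPM to 220 CPM in the others. The share of cells with an Hbb-bs UMI differed less: 64.3% in subcluster 2 and 79.7% in subcluster 4, against 65.9% to 77.4%. In subcluster 2 it was at 6265 CPM in DMM cells and 185 CPM in sham cells, and in subcluster 4 at 4555 CPM and 4373 CPM. Haemoglobin, mitochondrial and ribosomal protein genes were left out of the clustering, so Hbb-bs itself took no part in the separation. The part of background RNA of other genes was not tested. Subcluster 4 also held 3 of the 5 called doublets.

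Each subcluster held cells of both libraries, in different proportions. Subcluster 4 held 31 DMM cells and 28 sham cells, 10.6% of DMM members (7.33% to 14.7%) and 33.3% of sham members (23.4% to 44.5%). Subcluster 1 held 79 and 9 cells, 27.1% of DMM members (22.0% to 32.5%) and 10.7% of sham members (5.02% to 19.4%). For these 2 subclusters the intervals of the libraries did not overlap. For subclusters 2, 3, 5, 6 and 7 they did.

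**Figure D3:**
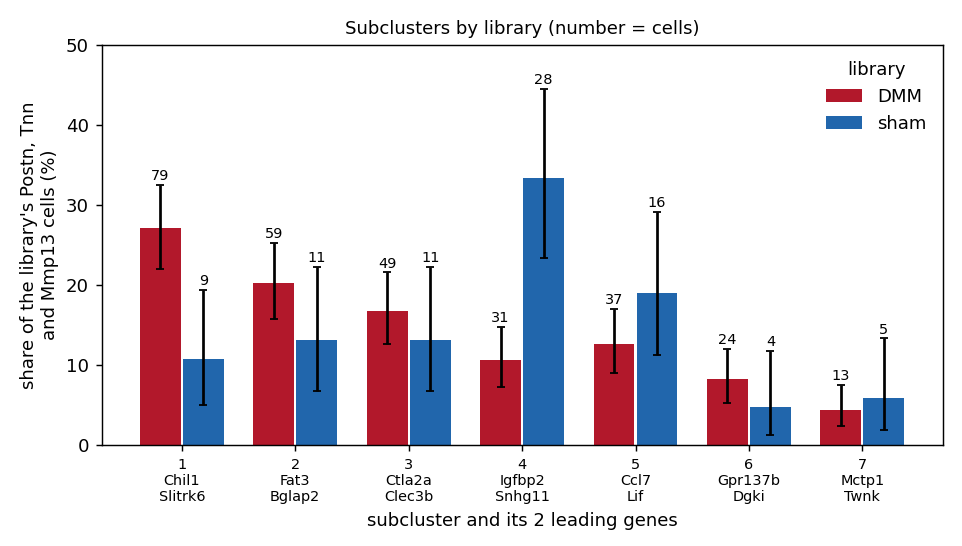
Share of each library's members (%, vertical axis) in the 7 subclusters, DMM in red and sham in blue, with exact 95% counting intervals and the number of cells above each bar. Sham members concentrate in subcluster 4 (33.3%) and DMM members in subcluster 1 (27.1%).

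Members with Mmp13 also had more of several bone genes. Members with an Mmp13 UMI numbered 166 in the DMM library and 56 in the sham library, and those without it 126 and 28. In the DMM library Ibsp was at 2752 CPM in members with Mmp13 and 854 CPM in those without, and in the sham library at 2073 CPM and 281 CPM. The ratios were 3.22 (3.00 to 3.46) and 7.38 (5.83 to 9.47). Runx2 was 1.53 times as high with Mmp13 in the DMM library (1.33 to 1.78) and 2.26 times in the sham library (1.72 to 3.00). Alpl was 2.19 times as high (1.79 to 2.69) and 3.07 times as high (1.88 to 5.27). Pth1r, the receptor of parathyroid hormone, was 1.97 times as high (1.55 to 2.52) and 3.31 times as high (1.56 to 8.04). Igf1 went the other way, at 313 CPM with Mmp13 and 928 CPM without it in the DMM library, and 446 CPM and 961 CPM in the sham library. Cxcl12, a chemokine of stromal cells, was at 252 CPM and 352 CPM in the DMM library, and 281 CPM and 797 CPM in the sham library. Sfrp4 was 0.408 and 0.428 times as high with Mmp13 in the DMM and sham libraries. Members without Mmp13 had to carry 3 of the other 4 naming genes, so the levels of those genes were not compared. Median depth was 7639 and 8381 UMIs with and without Mmp13 in the DMM library, and 8633.5 and 8840 in the sham library.

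Postn split members differently, and less alike in the 2 libraries. Sfrp2 was lower in members with a Postn UMI in both, at 0.291 times the level of members without it in the DMM library (0.259 to 0.328) and 0.262 times in the sham library (0.215 to 0.316). Comp was 0.652 and 0.470 times as high, and Cthrc1, a secreted protein of matrix-forming cells, 1.49 and 1.99 times. Cxcl12 was 8.54 times as high with Postn in the sham library (6.04 to 12.4), and 0.853 times in the DMM library (0.738 to 0.986). Sham members with Postn held 325 Cxcl12 UMIs and those without it 36. The 16 sham cells of subcluster 5 held 258 Cxcl12 UMIs, and their Postn was at 1582 CPM. The sham ratio without those cells was not tested. Members without Postn had to pass the rule on the other naming genes, so the choice of members sets part of this split.

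Between the libraries, members differed over a broad range of genes. Of 4890 genes with at least 100 UMIs over both libraries, 271 (5.54%) were 1.5-fold or more higher in DMM members and 600 (12.3%) were 1.5-fold or more lower. That split depends on the scaling. With median-of-ratios scaling, which shifts every log2 ratio up by 0.14, 553 were higher and 343 lower. The ratio also moved with gene length: the median log2 ratio was 0.26 among the 1223 genes with the shortest genomic spans (median 5.76 kb) and -0.36 among the 1223 with the longest (median 151 kb), and the rank correlation across genes was -0.51. Genes are not independent replicates, and the part of span in any single ratio was not tested.

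The naming genes themselves differed in the order of their levels. Their detection chose the members, so these levels depend on which combinations admitted cells, and the ratios describe the choice. The combinations differed between the libraries: Tnn, Cpxm1 and Megf6 without the others made up 18.8% of DMM members and 10.7% of sham members. Mmp13 was at 810 CPM in DMM members and 1780 CPM in sham members, 2.20-fold lower in the DMM library. Postn was at 354 CPM and 778 CPM, also 2.20-fold lower. Megf6 was at 191 CPM and 110 CPM, 1.74-fold higher (1.39 to 2.21). Tnn at 618 CPM and 525 CPM and Cpxm1 at 296 CPM and 413 CPM lay within 1.5-fold of each other between the libraries. Postn was at 325 CPM in DMM cells and 1582 CPM in sham cells of subcluster 5, and at 198 CPM and 149 CPM in subcluster 4. Mmp13 was at 1506 CPM and 2445 CPM in subcluster 4, and at 582 CPM and 665 CPM in subcluster 5. These were the only subclusters with at least 15 cells of each library.

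Among the 12 genes that stood highest in DMM members, several are known in mitochondria, signalling or contraction. Ndufa4l2, a hypoxia-induced mitochondrial protein gene, was at 246 CPM in DMM members and 54.9 CPM in sham members, 4.49-fold higher (3.30 to 6.24), and was found in 45.2% and 32.1% of cells. It was higher in the DMM library in subcluster 4, at 201 CPM and 83.2 CPM, and in subcluster 5, at 87.8 CPM and 21.0 CPM. Its level in other Col1a1 cells was 407 CPM and 166 CPM. Rgs3, a regulator of G protein signalling, was at 134 CPM and 42.4 CPM, a ratio of 3.16 (2.22 to 4.64). The matricellular gene Ccn5 was at 97.4 CPM and 36.2 CPM, a ratio of 2.69 (1.83 to 4.10), and smooth muscle actin (Acta2) at 95.1 CPM and 39.9 CPM, a ratio of 2.38 (1.64 to 3.56). Without subcluster 4 Acta2 was at 84.2 CPM and 58.5 CPM, under 1.5-fold, and in subcluster 5 it was at 32.2 CPM and 42.0 CPM. Ndufs6 of respiratory complex I was at 89.3 CPM and 32.4 CPM. Ctla2a headed the order, at 168 CPM and 6.24 CPM, but came from few cells: 7.19% of DMM members had a UMI, 1 DMM cell held 37.7% of its UMIs, and all 5 sham UMIs were in 1 cell. Cytl1 was at 384 CPM and 105 CPM, 1 DMM cell held 42.8% of its UMIs, and its log2 ratio of 1.87 was 1.09 with called doublets removed. Its levels in members were below those in erythroid cells, 1156 CPM and 1425 CPM with called doublets included. The part of background RNA was not tested. Without subcluster 4 Ctla2a was at 187 CPM and 9.75 CPM. Ssu72, Crip2, Glis1, Fibin and C1qtnf2 were the others. Fibin was at 164 CPM and 71.1 CPM over all members, and 164 CPM and 35.1 CPM without subcluster 4. C1qtnf2 was at 76.4 CPM and 33.7 CPM over all members, and 78.9 CPM and 19.5 CPM without it.

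Among the 12 genes that stood lowest in DMM members, Epha3, a receptor of ephrins, was at 49.1 CPM in DMM members and 262 CPM in sham members, 5.34-fold lower (4.26 to 6.71), and was found in 16.1% and 45.2% of cells. Slit2, a guidance protein secreted by many mesenchymal cells, was at 40.1 CPM and 233 CPM, 5.81-fold lower (4.55 to 7.47). The Wnt amplifier Lgr5 was at 19.5 CPM and 139 CPM, with 1 sham cell holding 32.4% of its UMIs. The transcription factor gene Foxp2 was at 36.6 CPM and 191 CPM, 5.21-fold lower (4.01 to 6.81). Without subcluster 4 its difference was smaller, at 26.5 CPM and 44.8 CPM, and that of Epha3 was 26.5 CPM and 81.9 CPM. Slit2 without that subcluster was at 19.8 CPM and 177 CPM. Myoc, C1qtnf3, Pcdh7, Sparcl1, Serpina3n, Tenm3 and Arhgap6 were between 3.80-fold and 8.11-fold lower. Without subcluster 4 the differences of 3 of these were smaller: Myoc was at 50.7 CPM in DMM members and 222 CPM in sham members, Tenm3 at 37.5 CPM and 89.7 CPM, and Sparcl1 at 27.3 CPM and 70.2 CPM. Ccl7 was at 25.7 CPM and 282 CPM, but 1 sham cell held 70.8% of its UMIs, and its log2 ratio of -3.45 became -2.32 when the single highest cell per library was dropped. The 12 lower genes had a median span of 229 kb and the 12 higher ones 10.5 kb.

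Many of these genes had the same direction in other cells of the same libraries, chondrocytes included. Of the 12 genes higher in DMM members, 11 had a log2 ratio above 0 in osteoblast lineage cells, 10 in other Col1a1 cells and 10 in chondrocytes. Of the 12 lower, 10 were below 0 in osteoblast lineage cells, 10 in other Col1a1 cells and 11 in chondrocytes. The share of all genes that keep their direction between these sets was not computed. In osteoblast lineage cells Slit2 was at 251 CPM in the DMM library and 650 CPM in the sham library.

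**Figure D4:**
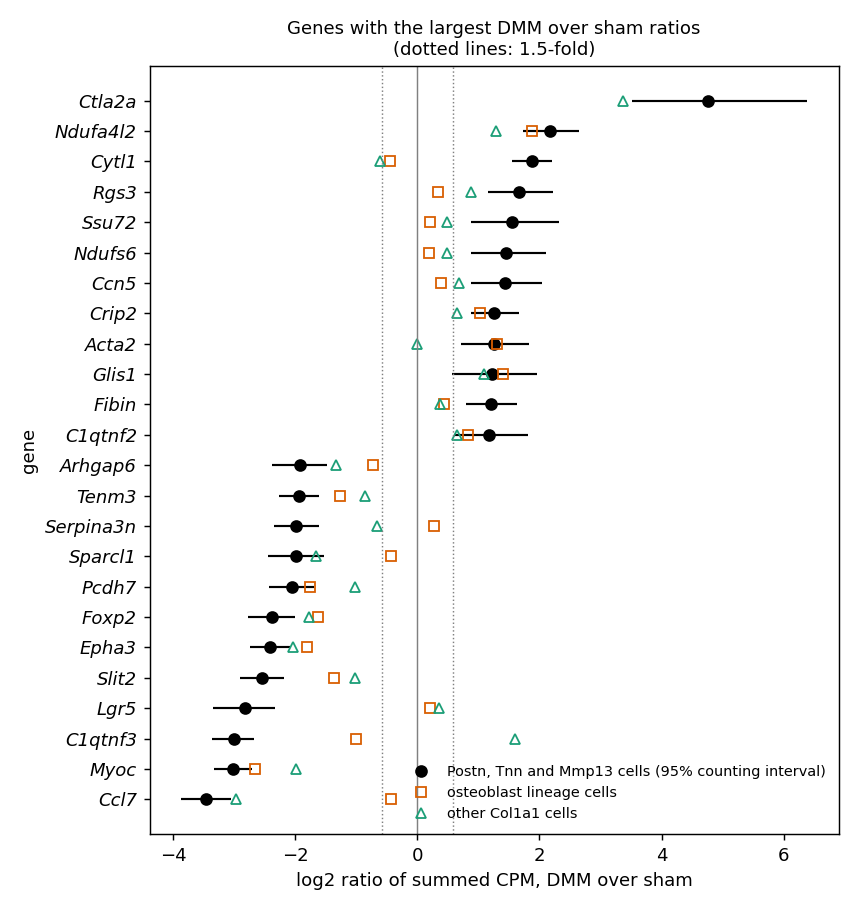
Log2 ratio of summed CPM, DMM over sham (horizontal axis), of the 24 named genes (rows) in members (black, with 95% counting intervals), osteoblast lineage cells (orange squares) and other Col1a1 cells (green triangles); a gene with 0 UMIs in a comparison library has no symbol there. Most symbols of a gene lie on 1 side of 0, and Ctla2a has the highest member ratio, 4.75.

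By gene list, respiratory chain and glycolysis genes had medians above that of all genes, and inflammation genes below it. Among all 7096 genes with at least 50 UMIs, 7.48% were 1.5-fold or more higher in DMM members, 14% were lower, and the median log2 ratio was -0.09. Without subcluster 4, 6432 genes had at least 50 UMIs, of which 525 were higher and 1062 lower, with a median of -0.12. All 23 respiratory chain genes had a log2 ratio above 0, with a median of 0.43, and 7 were 1.5-fold or more higher. Cox6c of complex IV was at 411 CPM in DMM members and 263 CPM in sham members, and Atp5l of the ATP synthase at 365 CPM and 231 CPM. The summed level of the list was higher in the DMM library in every set of cells: 3948 CPM in DMM members and 2802 CPM in sham members, 4109 CPM and 3470 CPM in osteoblast lineage cells, 4019 CPM and 2644 CPM in other Col1a1 cells, 3658 CPM and 2761 CPM in chondrocytes, and 8857 CPM and 6519 CPM in erythroid cells. The list's genes are short, with a median span of 4.96 kb, and the 1223 shortest of the 4890 genes had a median of 0.26. Of 18 glycolysis and hypoxia genes 4 were higher and 2 lower, with a median of 0.36. Lactate dehydrogenase (Ldha) was at 285 CPM and 190 CPM, and triosephosphate isomerase (Tpi1) at 143 CPM and 87.4 CPM. Hk1, which phosphorylates glucose at the first step, was lower at 41.7 CPM and 76.1 CPM, and at 40.1 CPM and 54.6 CPM without subcluster 4, under 1.5-fold. Ldha and Atp5l, just past 1.5-fold in all members, each had a log2 ratio of 0.57 without that subcluster, just under it.

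Inflammation and chemokine genes were mostly lower in DMM members. Of 17 such genes 11 were 1.5-fold or more lower and 0 higher, with a median log2 ratio of -0.72. This direction was not particular to members. The list summed to 3665 CPM in DMM members and 5385 CPM in sham members, and 4459 CPM and 7025 CPM in other Col1a1 cells. The sums were 2301 CPM and 2797 CPM in osteoblast lineage cells, 1029 CPM and 1024 CPM in chondrocytes, and 372 CPM and 416 CPM in erythroid cells. The adhesion molecule Vcam1 was at 179 CPM in DMM members and 374 CPM in sham members, 2.10-fold lower. Complement C3 was at 57.7 CPM and 195 CPM, and prostaglandin synthase Ptgs2 at 69.4 CPM and 129 CPM. Nfkbia, an inhibitor of NF-kappaB that NF-kappaB itself induces, was at 997 CPM and 877 CPM. The list's direction depended on the rule: among cells with at least 4 of the 5 naming genes its median log2 ratio was 0.07. Without subcluster 4 it was -1.12, with 12 of 17 lower.

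Matrix proteases leaned the same way. Of 24 proteases and inhibitors 8 were lower and 0 higher, with a median of -0.35 (and -0.43 without subcluster 4). Membrane collagenase Mmp14 was at 341 CPM and 575 CPM in DMM and sham members, the aggrecan-cutting Adamts4 at 39.8 CPM and 67.4 CPM, and the protease inhibitor Serpine2 at 687 CPM and 1549 CPM. Serpine2 was also lower in subcluster 4, at 728 CPM and 1547 CPM, and in subcluster 5, at 506 CPM and 1029 CPM. Mmp2, a gelatinase, at 959 CPM and 1003 CPM and Ctsk, the collagen-degrading cathepsin, at 838 CPM and 865 CPM differed less.

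Structural matrix genes depended on which cells were counted. Of 15 fibrous collagens 4 were lower and 0 higher, with a median log2 ratio of -0.25, which was -0.02 without subcluster 4. Col12a1, a collagen that links fibrils, was at 999.7 CPM in DMM members and 2377 CPM in sham members, 2.38-fold lower, and at 1841 CPM and 4606 CPM in subcluster 4. Without subcluster 4 it was at 889 CPM and 1125 CPM, under 1.5-fold. In subcluster 5 its order was the opposite, at 673 CPM and 168 CPM. Of 10 tendon and ligament genes 3 were lower and 1 higher, with a median of -0.35, which turned to 0.13 without subcluster 4; Cilp was higher at 457 CPM and 237 CPM. Matricellular genes had 8 of 25 lower and 1 higher, with a median of -0.18, and 6 lower and 5 higher without subcluster 4, with a median of -0.08. Thrombospondin 2 (Thbs2) was at 582 CPM and 1047 CPM and Smoc2 at 305 CPM and 582 CPM. Neither was past 1.5-fold without subcluster 4, where Thbs2 was at 555 CPM and 616 CPM and Smoc2 at 302 CPM and 298 CPM. In subcluster 5 Thbs2 was at 497 CPM and 420.04 CPM. Small leucine-rich proteoglycans had a median of 0.18, with 1 of 10 higher and 1 lower: Prelp was at 436 CPM and 255 CPM, and keratocan (Kera) at 46.4 CPM and 89.9 CPM. Without subcluster 4 Kera was at 47.2 CPM and 50.7 CPM, and the list had 2 higher, 0 lower and a median of 0.43.

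Among secreted Wnt regulators and targets 4 of 8 were lower and 0 higher, with a median of -0.66, which was -0.20 without subcluster 4. Sfrp4 was at 108 CPM in DMM members and 225 CPM in sham members, and Wnt5a at 43.7 CPM and 76.1 CPM. Without subcluster 4 Wnt5a was at 45.0 CPM and 48.7 CPM, under 1.5-fold. Of 17 IGF and FGF genes 5 were lower and 0 higher, with a median of -0.21; Igfbp5 was at 662 CPM and 1002 CPM (623 CPM and 678 CPM without subcluster 4), while Igf1 was at 583 CPM and 615 CPM. Of 10 pain and axon guidance genes 4 were lower and 0 higher, with a median of -0.46, and the list's genes are long, with a median span of 174 kb. In the BMP and TGF-beta list 3 of 21 were lower and 2 higher. Bmp5 was at 31.2 CPM and 98.6 CPM (32.2 CPM and 46.8 CPM without subcluster 4, under 1.5-fold), and activin subunit Inhba at 80.7 CPM and 47.4 CPM.

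In the osteoblast list 1 of 11 measured genes was higher and 1 lower, with a median of 0.18 (and -0.03 without subcluster 4). Pth1r was at 132 CPM in DMM members and 77.4 CPM in sham members. Of 6 hypertrophy and mineralization genes 3 were higher and 0 lower, Enpp1, which makes pyrophosphate, at 133 CPM and 72.4 CPM (143 CPM and 97.5 CPM without subcluster 4, under 1.5-fold). Of 12 cell cycle genes 6 were higher and 0 lower, with a median of 0.57, which was 0.21 over 6 genes without subcluster 4. The proliferation gene Mki67 was at 32.3 CPM and 39.9 CPM. Immediate early genes, which respond to tissue digestion, had a median of 0.07, with 2 of 20 higher and 2 lower. The phosphatase Dusp1 was at 1271 CPM and 625 CPM, and Fos at 2566 CPM and 2295 CPM. ER folding genes had a median of -0.02, with 1 of 20 lower, and interferon and MHC class I genes -0.03, with 0 of 8 past the fold.

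**Figure D5:**
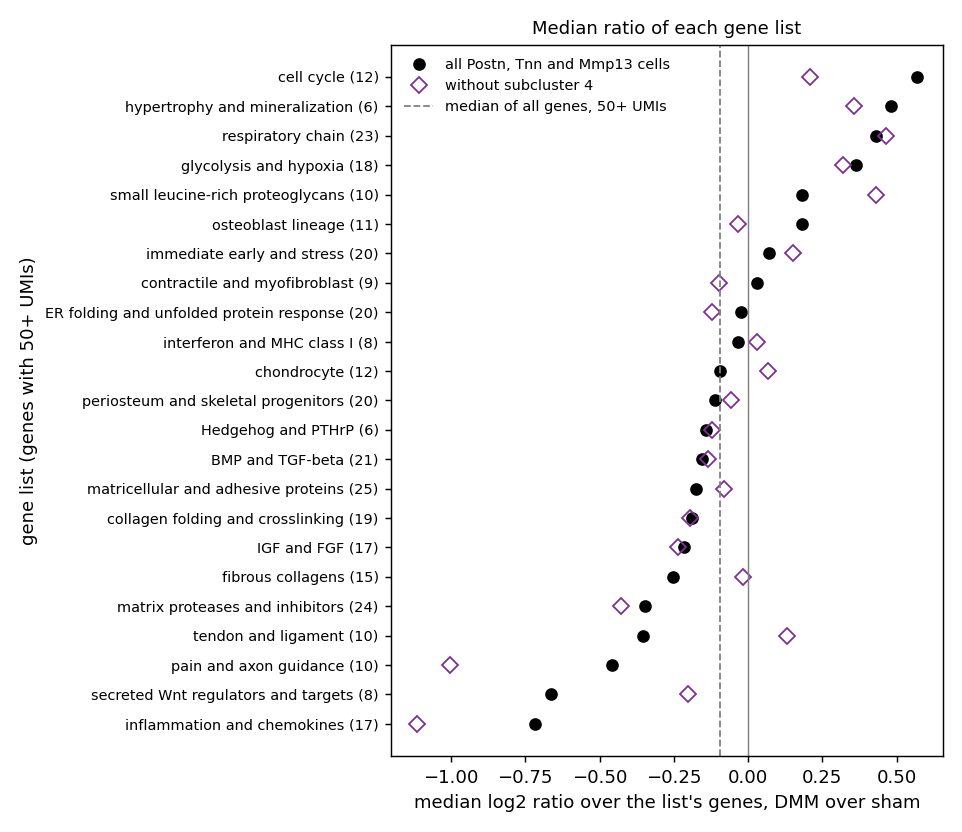
Median log2 ratio, DMM over sham (horizontal axis), of the gene lists with at least 6 measured genes (rows, number of genes in brackets). Black circles show all members and open diamonds members without subcluster 4. The dashed line is the median of all genes over all members, -0.09. Without subcluster 4 that median was -0.12. The respiratory chain stands at 0.43 and 0.46, while tendon and fibrous collagen medians move towards or past 0.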

How the data were processed

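Live cells of knee cartilage from WT mice were sorted to leave out blood and vessel cells. They were measured by 3' droplet single-cell RNA sequencing (kit V2 per the labels), with 1 library of 3 pooled mice per surgery. Erythroid cells were still present among the kept cells. Per the submitters' processing notes Cell Ranger 3.0.1 and genome mm10 were used; the deposited matrices name Cell Ranger 7.1.0, per the file headers. The deposited values are raw UMI counts per gene and barcode. The libraries held 11076 (DMM) and 11362 (sham) barcodes with 97346999 and 106799078 UMIs. A deposited bulk table with 6 columns that match no labelled sample was not used.

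From these counts, UMIs were summed over each set of cells and library and divided by the sum (CPM). Ratios carry exact conditional binomial 95% intervals, shares exact Clopper-Pearson intervals. No test was made, since each group is 1 library. Members are found by fixed limits on detected genes; they and the gene lists were chosen with earlier results of these data known. Named genes in the DMM over sham comparison are the 12 highest and 12 lowest ratios with 100 or more UMIs, 50 CPM or more in the higher library, a ratio interval that leaves out 1, and an unchanged sign both under median-of-ratios scaling and after dropping each gene's top cell; genes of the rule, mitochondrial, ribosomal, haemoglobin, predicted and sex-linked genes were left out. Against other cells, the 12 highest and 12 lowest by the smaller ratio of the 2 libraries were used. Up to 6 genes per list with the highest levels in members, and any past 1.5-fold, could be named; Scx and Hbb-bs were added after their values were seen. Doublets were scored with Scrublet in scanpy 1.11.5 and kept. Subclusters used 1000 variable genes, 15 components, 10 neighbours and Leiden resolution 0.6. Haemoglobin, mitochondrial and ribosomal protein genes were left out first, and then the 4289 of 12411 genes past 1.5-fold between libraries. Gene spans come from GENCODE and promoters from RefSeq. Counts of 4895 genes were simulated for the DMM over sham comparison within members, with 200 changed. Of these, 97.0% of 2-fold and 100% of 3-fold changes passed 1.5-fold, as did 1.90% of unchanged genes. The simulated counts held counting error only, with no variation between cells, mice or preparations. The 1.90% is therefore no rate of false calls for the real libraries. The values of some genes that the naming rule covers are not reported here.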

Additional observations from a re-analysis of the deposited data

Results flagged for a closer look

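For 6 genes the ratio between the libraries went past 1.5-fold in opposite directions in members and in a comparison set; the difference between the sets was not tested. Cytl1 had a log2 ratio of 1.87 in members and -0.61 in other Col1a1 cells. In members it was 1.16 without the top cell of each library. The level of Cytl1 in members was below that in erythroid cells of both libraries, and the part of background RNA was not tested. C1qtnf3 had -3.01 in members and 1.60 in other Col1a1 cells. Fbln2, a matrix glycoprotein gene, had -0.63 in members and 1.40 in osteoblast lineage cells, and Ltbp2 had -0.61 and 0.64. The chemokine gene Ccl2 had -1.54 in members and 2.45 in osteoblast lineage cells. Hmgb2, a chromatin protein gene, had 0.67 and -0.75.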

How the results depend on the processing

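The ratio of shares of members, DMM over sham, lay between 2.97 and 4.38 under the alternative limits on cells, Col1a1, genes, doublets and depth, and was 1.41 with Col1a1 cells as the denominator. The counts of genes higher and lower in DMM members, 271 and 600, were 553 and 343 with median-of-ratios scaling, 136 and 275 after thinning every member to 3000 UMIs, 141 and 342 for genes with at least 200 UMIs, and 1050 and 1585 for genes with at least 20 UMIs. Without the top cell of each gene 417 were higher and 456 lower. The other alternatives kept both counts within 1.5 times. All 24 named genes kept their direction under the alternatives, except inside subclusters 4 and 5, where 20 of 24 did in each. Those 2 settings and the one without subcluster 4 were added after the data were seen. Under median-of-ratios scaling and without the top cell, the kept direction was a condition of naming a gene and carries no support. The median of the inflammation and chemokine list was 0.070 among cells with at least 4 of the 5 genes; the cause was not tested. The 12 highest and 12 lowest genes over each comparison set kept their direction with doublets removed, thinning and median-of-ratios scaling; Bmp3 in DMM members and Slc13a5 in sham members had 0 UMIs and give no ratio. No paired analysis was possible because the labels give no replicate numbers and each surgery has 1 library. Sham members were few, 84 cells, and limit every ratio.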
